A study of Homo sapiens with 12 samples.

Results

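The luminal and hormone receptor genes described here are 9 named genes: ESR1, PGR, ERBB2, ERBB3, GATA3, FOXA1, XBP1, TFF1 and KRT18. They were taken by name from the 20090 protein-coding genes of the annotation, and all 9 were found in it. For each, every region that the 6 deposited peak lists place at its promoter (the 1000 bp before and the 100 bp after any transcript start) and within the gene and 50 kb to either side was collected. The lists come from chromatin immunoprecipitation sequencing of HCC70, an established breast cancer line of the triple-negative type, with antibodies against SREBP2, RORγ or acetylated lysine 27 of histone H3 (H3K27ac). Cells received vehicle or XY018, an antagonist of RORγ, for 24 h. The labels give its dose as 5 µM, whereas the methods of the study give a lower one. No line was genetically altered, so every group shares the HCC70 background, and each antibody has 1 vehicle and 1 XY018 library. With 1 library per group, no difference between treatments has a replicate check and no p-value is given.

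Luminal breast epithelium is defined by a small circuit of regulators. Oestrogen receptor α, encoded by ESR1, binds DNA together with the pioneer factor FOXA1 and with GATA3, and its targets include the progesterone receptor gene PGR and the secreted trefoil peptide gene TFF1. Triple-negative tumours lack oestrogen and progesterone receptor protein and do not overexpress the ERBB2 receptor (HER2), and a share of them have a basal-like expression pattern. SREBP2 is the factor that drives cholesterol synthesis genes, RORγ is a nuclear receptor, and H3K27ac marks active promoters and enhancers. RNA and protein were not part of these files, so the values below describe occupancy and acetylation.

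The sequences under the summits show what kind of DNA the luminal promoters offered. Each line is 121 bp around the vehicle summit, read on the plus strand of GRCh37 (hg19), with matches to the SP motif (GGGCGG, or CCGCCC on the other strand) in capitals. They were chosen to show the receptor genes ESR1 and PGR and the GATA3 region with the lowest SREBP2 ratio of that gene. The XBP1 region was added as the one with the most SREBP2 fragments at promoters of the 9 genes.
ESR1, SREBP2 summit, chr6:152129515-152129635: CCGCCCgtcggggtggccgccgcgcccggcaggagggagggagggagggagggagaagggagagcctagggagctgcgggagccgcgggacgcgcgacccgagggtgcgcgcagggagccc
PGR, SREBP2 summit, chr11:100998255-100998375: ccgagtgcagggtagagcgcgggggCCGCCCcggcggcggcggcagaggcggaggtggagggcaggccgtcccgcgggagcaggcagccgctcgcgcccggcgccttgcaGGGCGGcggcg
PGR, RORγ summit, chr11:100998346-100998466: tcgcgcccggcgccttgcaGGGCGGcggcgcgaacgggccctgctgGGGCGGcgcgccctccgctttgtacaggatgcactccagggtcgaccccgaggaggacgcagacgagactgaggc
GATA3, SREBP2 summit, chr10:8096342-8096462: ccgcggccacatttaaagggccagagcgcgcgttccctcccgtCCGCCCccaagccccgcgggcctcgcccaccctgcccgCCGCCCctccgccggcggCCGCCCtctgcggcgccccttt
XBP1, SREBP2 summit, chr22:29196244-29196364: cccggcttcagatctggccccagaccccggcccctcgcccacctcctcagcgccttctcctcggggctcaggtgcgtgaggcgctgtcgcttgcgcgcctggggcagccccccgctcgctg

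These stretches are rich in G and C, from 74.4% at the PGR RORγ summit to 83.5% at the PGR SREBP2 summit. The ESR1 stretch lies in an intron, the PGR and XBP1 stretches reach into coding sequence, and the GATA3 stretch contains no coding sequence. Within 100 bp of the summit, the SP motif was present at 9 of the 14 SREBP2 vehicle regions and 9 of the 14 RORγ vehicle regions at promoters of the 9 genes. Across all vehicle regions the share was 30.1% for SREBP2 and 19.6% for RORγ. Those regions lay anywhere in the genome, with a mean GC of 61.8% and 56.4%, and no share over promoter regions alone was taken. The motif shares of all regions given below have the same limit, so no motif count here is a trait shown for luminal promoters. The promoter regions of 1 gene can overlap or share sequence, so these are not independent sites. None of the 14 regions in either list contained the nuclear receptor half-site AGGTCA, the oestrogen response element (an inverted repeat of GGTCA with 3 bases between), the core of the ROR response element, the sterol element TCACNCCAC, the forkhead motif TGTTTAC or the GATA motif AGATAA. The half-site is contained in some matches to the response elements of both receptor types. The half-site was present in 17.1% of all SREBP2 and 25.6% of all RORγ vehicle regions, the sterol element in 2.42% and 2.996%, and each of the other 4 in at most 3.59%. Absence of these letters describes the window searched and not what bound there. The NF-Y motif CCAAT was found at 2 GATA3 regions with SREBP2 and 1 with RORγ, out of 14 each, and in 10.8% and 12.5% of all vehicle regions. All motifs were searched on both strands.

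A region was present at the promoter of 8 of the 9 genes in the SREBP2 lists with vehicle and with XY018, where 70.6% and 62.7% of all protein-coding genes had one. The count was also 8 of 9 with RORγ under either treatment, beside 62.7% of all genes with vehicle and 61.5% with XY018. H3K27ac was called at 7 of 9 under either treatment, beside 66.8% with vehicle and 68.0% with XY018. The same genes were called with vehicle and with XY018 for each antibody. The 7 genes ESR1, ERBB2, ERBB3, GATA3, FOXA1, XBP1 and KRT18 had a region in all 6 lists, as did 46.3% of all genes. PGR had both factors without H3K27ac, a pattern held by 1353 genes or 6.73%. TFF1 had no promoter region in any list, as did 17.5%. Calls at ERBB3 were the ones that depended on definition: its RORγ region disappeared under both treatments at q of at most 1e-05 or when starts of protein-coding transcripts alone were used, and with vehicle when the summit had to lie in the window. Its SREBP2 vehicle region was also lost under that last definition. With 5 kb to either side of a start, TFF1 gained a region in the vehicle lists of both factors and in the RORγ and H3K27ac lists with XY018.

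The level at a promoter is given as the number of fragments stacked at the summit of its strongest region, recovered from the deposited fold enrichment and p-value, and as the pileup, which is that number over the genome-wide background of the library. The background was 1.03 and 1.21 fragments for SREBP2, 0.787 and 0.712 for RORγ and 1.17 and 1.07 for H3K27ac, with vehicle and XY018 in that order. Depths were 3.65 to 6.16 tags per kb. Intervals are exact 95% intervals that cover counting error only, since reads without molecular identifiers are not independent molecules. Ratios of XY018 to vehicle compare overlapping regions, and the overlapping pair with the highest summed pileup stands for the gene.

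**Figure D1:**
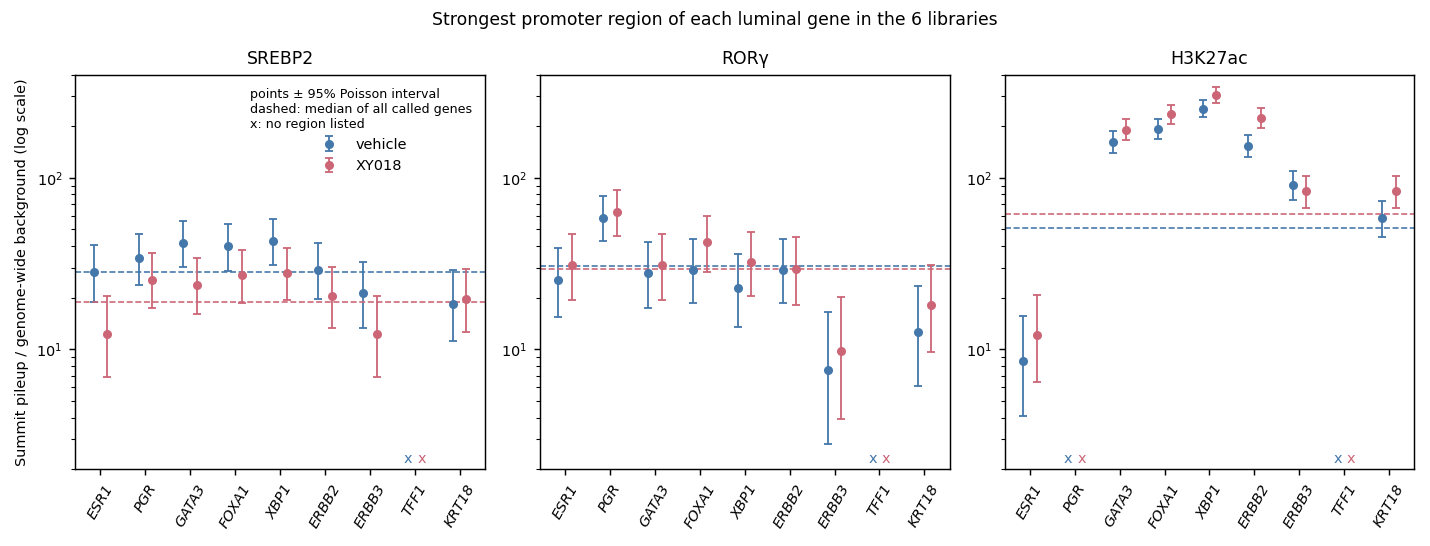
Summit pileup over the genome-wide background (log axis) at the strongest promoter region of each of the 9 genes, for SREBP2, RORγ and H3K27ac with vehicle (blue) and XY018 (red). Bars are exact Poisson 95% intervals, dashed lines the medians of all genes with a region, and a cross marks a gene with no region listed. ESR1 lies far below the other acetylated genes in H3K27ac, at 8.55 with vehicle, while PGR has the highest RORγ pileup of the 9, at 58.4.

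ESR1 encodes oestrogen receptor α. Its SREBP2 region at chr6:152129196-152129847 had its summit 758 bp downstream of the canonical start, with 29 fragments with vehicle and 15 with XY018. The pileup went from 28.2 to 12.4 times background, a ratio of 0.438 (0.218 to 0.844). A further SREBP2 region at the canonical start, chr6:152128755-152129068, gave 25 and 9 fragments, a ratio of 0.305 (0.125 to 0.675). Both intervals exclude 1 and include the all-gene median of 0.621. The RORγ region over the first of these gave 20 and 22 fragments, a ratio of 1.22 (0.633 to 2.35). With vehicle that RORγ region also overlapped a weaker XY018 region of 9 fragments, a ratio of 0.498 (0.200 to 1.14). H3K27ac at the ESR1 promoter was weak, with 10 fragments with vehicle and 13 with XY018 and a ratio of 1.42 (0.577 to 3.63). With vehicle, its pileup stood at percentile 1.87 of all promoters with an H3K27ac region, whereas SREBP2 and RORγ stood at percentiles 49.5 and 41.9. Factor occupancy at ESR1 was therefore close to that of a typical bound promoter while acetylation was near the bottom of the range. The H3K27ac region of highest fold in the ESR1 window lay elsewhere, in an intron 94168 bp downstream of the canonical start, with 20 fragments with vehicle and 17 with XY018.

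PGR encodes the progesterone receptor, a classical oestrogen target. Its strongest region with either factor lay in coding sequence, with the SREBP2 vehicle summit 2229 bp downstream of the canonical start and 496 bp upstream of an alternative start. SREBP2 gave 35 fragments with vehicle and 31 with XY018, a ratio of 0.750 (0.447 to 1.25). RORγ gave 46 and 45, a ratio of 1.08 (0.701 to 1.67). Both intervals include 1. The PGR regions were also broad: 1971 bp with vehicle and 1415 bp with XY018 for SREBP2, and 1532 and 1791 bp for RORγ, where the vehicle medians of all promoters with a region were 764 and 735 bp. No H3K27ac region was listed anywhere in the 200.19 kb of the PGR window under either treatment. Because the H3K27ac lists hold part of longer call sets, a missing entry does not show that signal was absent. Among the 1353 genes with both factors and no H3K27ac, the PGR vehicle pileup exceeded that of 61.2% for SREBP2 and of 67.7% for RORγ, so it was no outlier within this pattern.

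**Figure D2:**
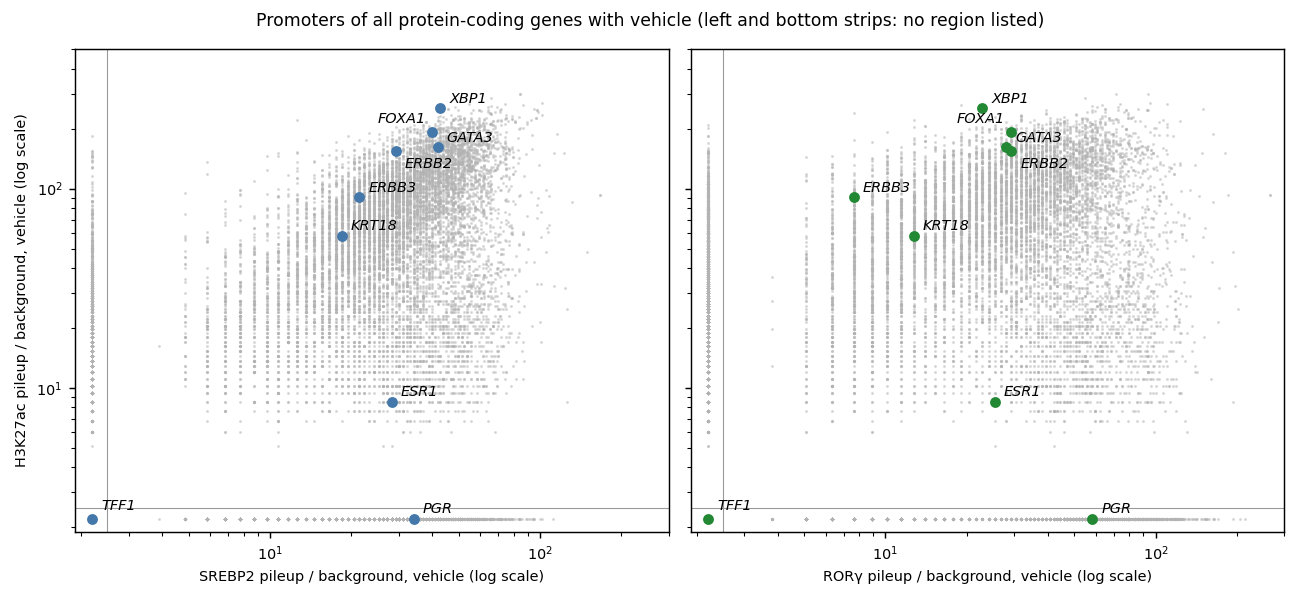
H3K27ac pileup over background against SREBP2 (left) and RORγ pileup (right) with vehicle for all 20090 protein-coding genes (grey) and the 9 luminal genes (coloured), on log axes. Genes with no region are placed in the strips at the left and the bottom. XBP1, FOXA1, GATA3 and ERBB2 lie near the top of the cloud, ESR1 near the bottom, and PGR in the strip without H3K27ac.

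ERBB2 and ERBB3 encode receptors of the ErbB family, ERBB2 being the HER2 receptor and ERBB3 its partner with a weak kinase. At ERBB2 the strongest SREBP2 region, chr17:37856213-37856979, gave 30 fragments with vehicle and 25 with XY018, a ratio of 0.705 (0.398 to 1.24). RORγ gave 23 and 21, with a ratio of 1.01 (0.531 to 1.91). H3K27ac gave 180 and 239, with a ratio of 1.45 (1.19 to 1.78), whose interval excludes 1. A second acetylated region, at chr17:37843938-37845025, lay about an alternative ERBB2 start 12150 bp before the canonical one and also at a promoter of PGAP3. It went the other way, with 56 and 28 H3K27ac fragments and a ratio of 0.548 (0.335 to 0.877). The weaker H3K27ac promoter regions of ERBB2, with at most 20 vehicle fragments, had ratios of 1.57, 1.42, 1.39 and 1.26, all with intervals that include 1. The canonical ERBB2 promoter was thus among the strongly acetylated ones, at percentile 93.4 with vehicle, in a line labelled triple-negative. Acetylation does not measure receptor protein, so this does not bear directly on that label. ERBB3 gave 22 and 15 SREBP2 fragments, a ratio of 0.577 (0.278 to 1.16). Its RORγ region was the weakest of the 8, with 6 and 7 fragments. Among the strongest H3K27ac regions of the 7 acetylated genes, that of ERBB3 was the only one lower with XY018, at 106 and 89 fragments and a ratio of 0.920 (0.686 to 1.23), an interval that includes 1.

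The other 2 receptors of the ErbB family were measured in the same way. EGFR, the first member of the family and a gene of basal-like tumours, had SREBP2 summits of 58 (vehicle) and 42 fragments (XY018), RORγ summits of 35 and 34, and H3K27ac summits of 231 and 255. At ERBB4 the summits reached 30 and 26 fragments with the SREBP2 antibody, 35 and 21 with the RORγ antibody, and 11 and 16 for the mark. EGFR, ERBB2 and ERBB3 promoters were therefore well acetylated and the ERBB4 promoter was not.

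GATA3, FOXA1 and XBP1 encode transcription factors of luminal cells, XBP1 acting also in the unfolded protein response. Their promoters were strongly acetylated. With vehicle, H3K27ac stood at 162 times background at GATA3 (189 fragments), 192 at FOXA1 (225 fragments) and 253 at XBP1 (296 fragments), or percentiles 94.8, 98.1 and 99.9 of all acetylated promoters. With XY018 the fragments were 204, 250 and 326. The ratios were 1.18 (0.966 to 1.45), 1.22 (1.01 to 1.46) and 1.21 (1.03 to 1.42), so the intervals of FOXA1 and XBP1 exclude 1 and that of GATA3 does not. Weaker H3K27ac regions at 2 of these promoters were lower with XY018. The GATA3 region at chr10:8099375-8101292 gave 125 and 100 fragments, a ratio of 0.877 (0.667 to 1.15), and the FOXA1 region at chr14:38065335-38066343 gave 30 fragments with vehicle and overlapped XY018 regions of 19 and 11. The XBP1 region was also wide, at 3939 bp with vehicle and 4777 bp with XY018, and the GATA3 region spanned 2761 and 3419 bp. The median acetylated promoter region was 1101 bp wide with vehicle and 1142 bp with XY018.

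SREBP2 at the same 3 genes was lower with XY018. GATA3 gave 43 fragments with vehicle and 22 with XY018 in the region just upstream of its canonical start. The ratio was 0.433 (0.247 to 0.740), which excludes 1 and was the lowest among the regions that stand for the 8 genes. The further ESR1 region was lower, at 0.305. GATA3 had 2 further SREBP2 promoter regions, with summits 1041 bp before and 3935 bp after the canonical start, which gave 28 and 22 and 37 and 29 fragments and ratios of 0.665 (0.363 to 1.21) and 0.663 (0.394 to 1.11). FOXA1 gave 41 and 33, with a ratio of 0.681 (0.417 to 1.10), and XBP1 gave 44 and 34, with a ratio of 0.654 (0.405 to 1.05). RORγ was not lower at the strongest region of these genes. GATA3 had 22 fragments under each treatment, FOXA1 had 23 and 30, and XBP1 had 18 and 23. The corresponding RORγ ratios were 1.11 (0.584 to 2.09), 1.44 (0.810 to 2.60) and 1.41 (0.730 to 2.78), all with intervals that include 1. At the further GATA3 regions RORγ gave 14 and 7 fragments before the canonical start, a ratio of 0.553 (0.189 to 1.46), and 11 and 13 after it, a ratio of 1.31 (0.540 to 3.22).

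TFF1, a trefoil peptide gene and the classical oestrogen-induced transcript, had no promoter region. The nearest SREBP2 vehicle region lay inside the gene, at chr21:43785233-43785527, with 11 fragments, and no SREBP2 region overlapped it with XY018. The region of highest fold in the TFF1 window for both factors was in an intron of the neighbouring TFF2, 18704 bp downstream of the TFF1 start for SREBP2, with 21 fragments with vehicle and 13 with XY018. RORγ there gave 13 and 9 fragments. No H3K27ac region was listed in the TFF1 window with vehicle, and with XY018 there were 2, of 10 and 12 fragments, at 4569 and 33673 bp upstream of the start. TFF3, its paralogue nearby, had 4 RORγ fragments at its promoter with vehicle and no other promoter region.

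KRT18 encodes the keratin of simple and luminal epithelium that pairs with KRT8. It was the one gene of the 8 with a SREBP2 ratio above 1, at 19 fragments with vehicle and 24 with XY018 and a ratio of 1.07 (0.561 to 2.06), an interval wide enough to include the all-gene median. RORγ gave 10 and 13 fragments, a ratio of 1.44 (0.582 to 3.66). H3K27ac gave 68 and 89, a ratio of 1.43 (1.03 to 1.996). In the annotation KRT8 overlaps the KRT18 promoter, and the strongest KRT18 H3K27ac region also counts as a KRT8 promoter region. The regions that stand for KRT8 gave 25 and 15 SREBP2 fragments, 22 and 10 RORγ fragments, and 80 and 89 H3K27ac fragments. With vehicle this H3K27ac region lay at chr12:53297115-53298857, its summit 45193 bp upstream of the canonical KRT18 start. The factors thus had lower pileups with XY018 at the regions that stand for KRT8 and not at the KRT18 promoter, with ratios for KRT8 of 0.508 for SREBP2 and 0.503 for RORγ. The difference between both genes was not tested.

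**Figure D3:**
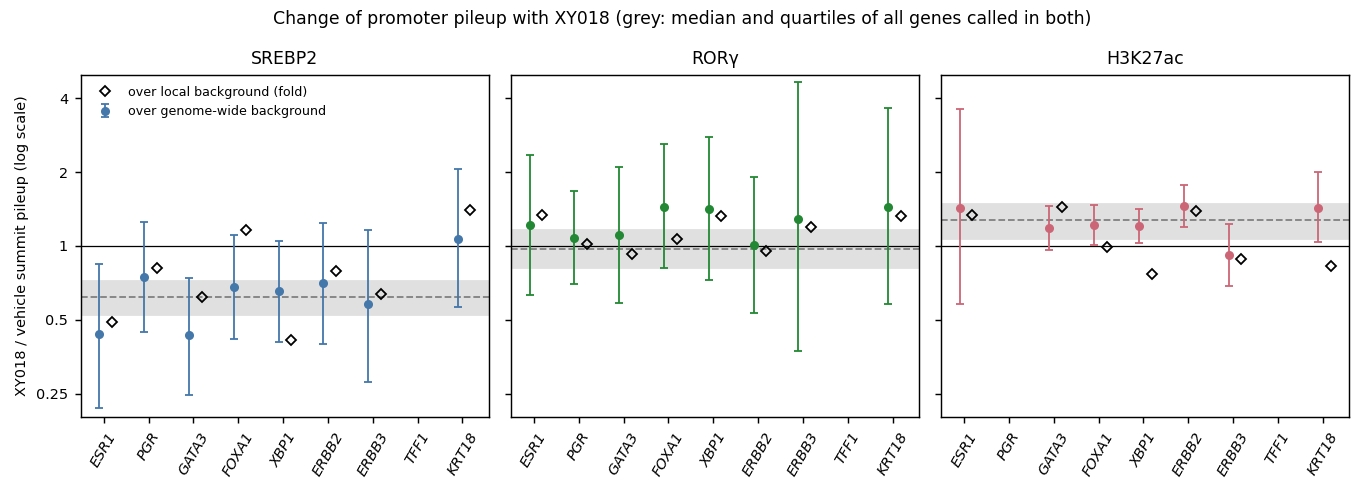
Ratio of XY018 to vehicle summit pileup at the promoter of each luminal gene (log axis) for the 3 antibodies. Filled points with 95% intervals use the genome-wide background, and open diamonds the deposited fold enrichment, which uses the local background. The dashed line and grey band give the median and quartiles of all genes called in both libraries. The median SREBP2 ratio of these genes, 0.668, lies near the all-gene median of 0.621, while single ratios run from 0.433 at GATA3 to 1.07 at KRT18. Every RORγ interval includes 1.

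Read over the genes together, SREBP2 pileup was lower with XY018 at 7 of the 8 genes, with a median ratio of 0.668, and the all-gene median was 0.621. A ratio below 1 was the rule, held by 98.1% of all genes. The ratio was at least 1.5-fold lower at 4 of 8, where 62.5% of all genes were, and at least 1.5-fold higher at 0 of 8, where 0.0567% were. Summed over the 8 genes the ratio was 0.640 (0.530 to 0.773). Fragment length was not measured but taken as the narrowest region width of each list, 185 bp with vehicle and 205 bp with XY018 for SREBP2. Scaling by tags divides the background by this length. Scaled so, the median was 0.740 and 3 of 8 were at least 1.5-fold lower, XBP1 no longer among them. Over all genes the scaled median was 0.688 and 44.9% were at least 1.5-fold lower. The median SREBP2 ratio of the luminal promoters thus lay close to that of promoters in general. Single ratios, before scaling by tags, ran from 0.433 at GATA3 to 1.07 at KRT18, beyond the all-gene quartiles of 0.523 and 0.720. RORγ was above 1 at 8 of 8, where 44.8% of all genes were, with a median of 1.25 and a summed ratio of 1.20 (0.972 to 1.49), where the all-gene median was 0.968. None of the 8 reached 1.5-fold in either direction, and 9.52% of all genes were at least 1.5-fold lower and 7.36% higher. H3K27ac was above 1 at 6 of 7, where 80.5% of all genes were, with a median of 1.22 and a summed ratio of 1.23 (1.14 to 1.34), and the all-gene median was 1.27. None of the 7 reached 1.5-fold, where 3.07% of all genes were lower and 22.7% higher.

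These values use 1 region per gene. Over every promoter region that paired with exactly 1 region of the other treatment, SREBP2 was lower at 11 of 12, RORγ at 1 of 7 and H3K27ac at 3 of 12, with median ratios of 0.664, 1.29 and 1.24. Regions of 1 gene are not independent.

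These directions depend on the background. The deposited fold enrichment sets the summit fragments over the local background of each region, with the same constant added to both. No median was taken without that constant. By this fold, the median ratio of the luminal genes was 0.713 for SREBP2 and 1.13 for RORγ, and 0.986 for H3K27ac, where the direction turned. The all-gene medians were 0.683, 0.915 and 1.27. By this measure SREBP2 was lower at 6 of 8 genes, RORγ was higher at 6 of 8 and H3K27ac at 3 of 7. At FOXA1 the RORγ ratio stayed higher, at 1.07, only with the added constant. There the local background, from 1.06 to 1.48, rose by a larger share than the fragments, from 23 to 30. By the fold, the direction turned for SREBP2 at FOXA1, and for RORγ at GATA3 and ERBB2. It also turned for H3K27ac at FOXA1, XBP1 and KRT18, where the local background of that mark went from 1.32 to 1.61, from 1.39 to 2.42 and from 1.17 to 2.42 fragments with XY018.

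Other genes of the luminal and basal programmes were set beside them. Of 26 further luminal genes, 19 had an SREBP2 promoter region under each treatment, 18 had a RORγ region with vehicle and 17 with XY018, and 19 and 18 had H3K27ac. SREBP2 had a median ratio of 0.664 at these genes, RORγ one of 0.942 and H3K27ac one of 1.26. Of 20 basal genes, 12 had an SREBP2 region with vehicle and 11 with XY018, 12 and 13 had RORγ, and 17 had H3K27ac under each. Their median ratios were 0.547, 0.916 and 1.21. With vehicle, SREBP2, RORγ and H3K27ac were called at 73.1%, 69.2% and 73.1% of the luminal list and 60%, 60% and 85% of the basal list. The shares of all genes were 70.6%, 62.7% and 66.8% with vehicle and 62.7%, 61.5% and 68.0% with XY018. No difference between the lists was tested. The SREBP2 ratio was below 1 at each of the 18 luminal and 10 basal genes called in both libraries, as at nearly all genes. Among the 6 basal keratins, H3K27ac gave 33 and 22 fragments at KRT5, 27 and 29 at KRT16 and 8 and 18 at KRT17. The KRT17 H3K27ac regions formed no overlapping pair. KRT6A had an H3K27ac region of 8 fragments with XY018 alone, and KRT6B and KRT14 had no listed H3K27ac promoter region. The keratins do not stand for the basal list: its other genes ran from 16 H3K27ac fragments with vehicle at TP63 to 231 at EGFR, with 177 at CDH3 and 142 at FOXC1.

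**Figure D4:**
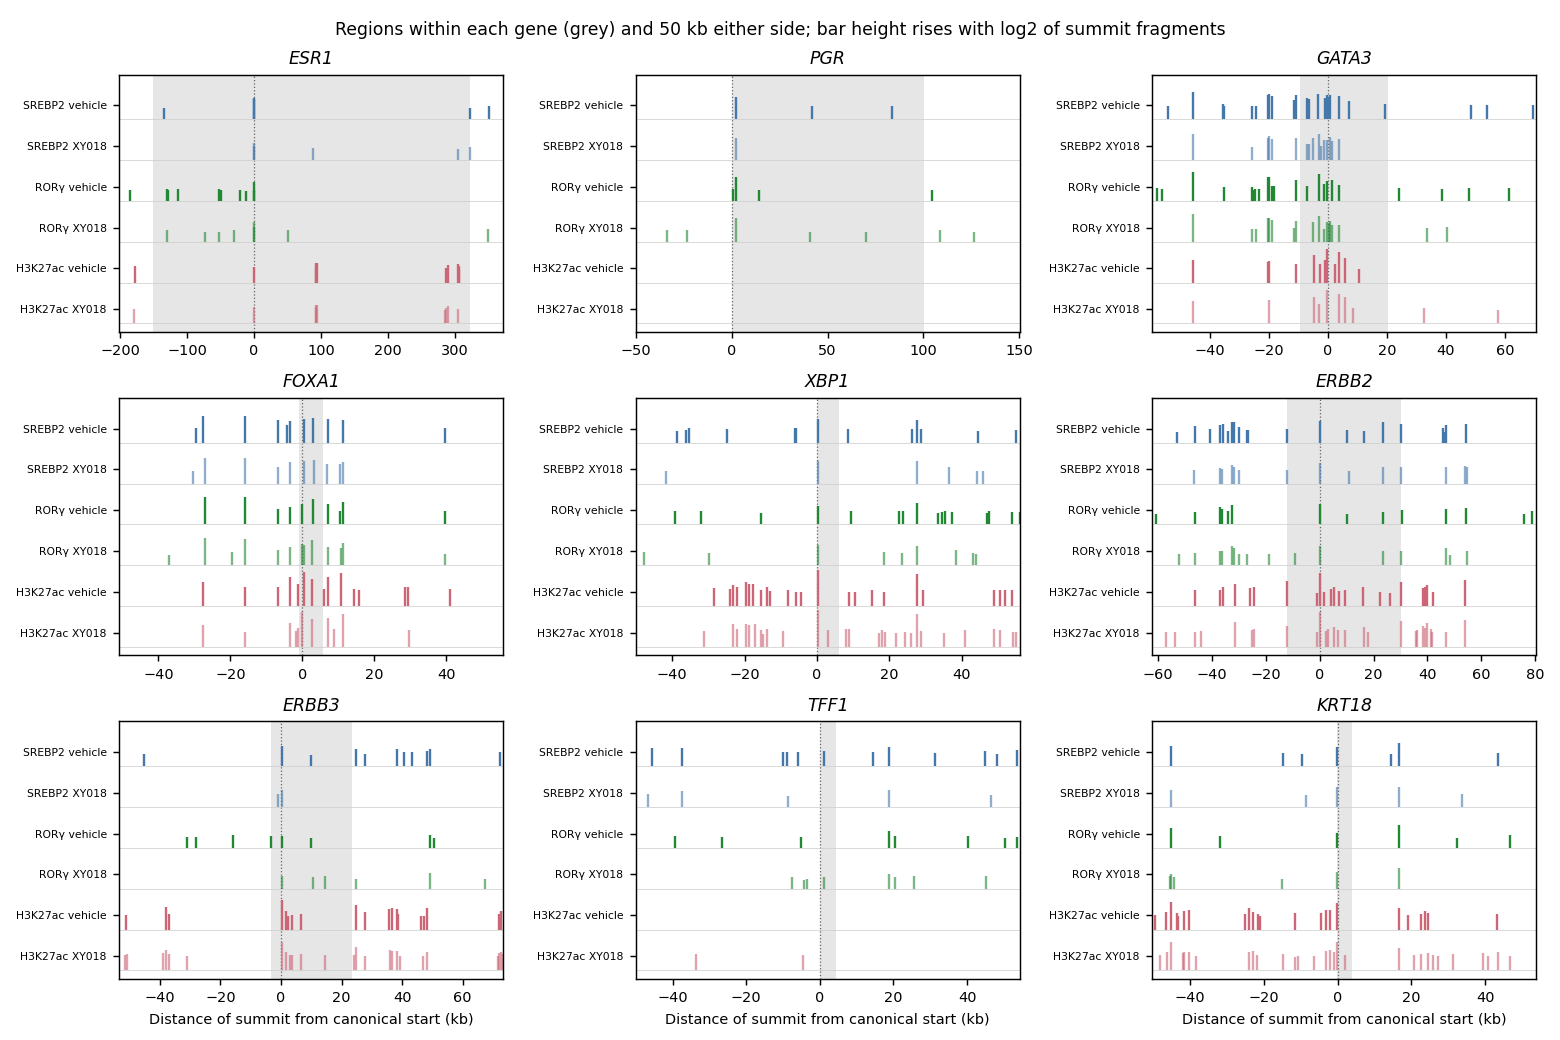
Summits of the regions within each gene (grey) and 50 kb to either side, by distance in kb from the canonical start, in 6 rows for the 3 antibodies with vehicle and XY018. Bar height rises with log2 of the summit fragments. PGR has no H3K27ac bars, and FOXA1 and GATA3 have strong bars upstream of the gene that appear in several rows.

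In the windows around the genes, 107 SREBP2 regions were listed in vehicle-treated cells and 64 after XY018, 40.2% fewer, and over the whole lists there were 40.7% fewer. With lists of equal length the windows held 72 and 64. Of the 107, 48 were kept, that is, they overlapped an XY018 region, a share of 44.9% (35.2 to 54.8%), beside 39.8% of all SREBP2 vehicle regions. RORγ had 99 and 91 regions, with 46 kept, or 46.5% (36.4 to 56.8%), beside 36.4% of all. H3K27ac had 126 and 143, with 91 kept, or 72.2% (63.5 to 79.8%), beside 69.3% of all. At the promoters of the 9 genes, 12 of 14 SREBP2 and 12 of 14 RORγ regions were kept, and 16 of 17 H3K27ac regions, where 74.0%, 78.6% and 86.9% of the regions at all promoters were. In promoters of other genes in the windows, 8 of 16, 7 of 10 and 24 of 26 were kept. Away from promoters it was 28 of 77, 27 of 75 and 51 of 83, where 31.4%, 30.5% and 63.9% of all such regions were kept. Regions were thus kept more often at promoters in the windows, as over the whole lists. Those at promoters were also the stronger ones, with a median of 28.5 SREBP2 fragments at the promoters of the 9 genes and 9 away from promoters.

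**Figure D5:**
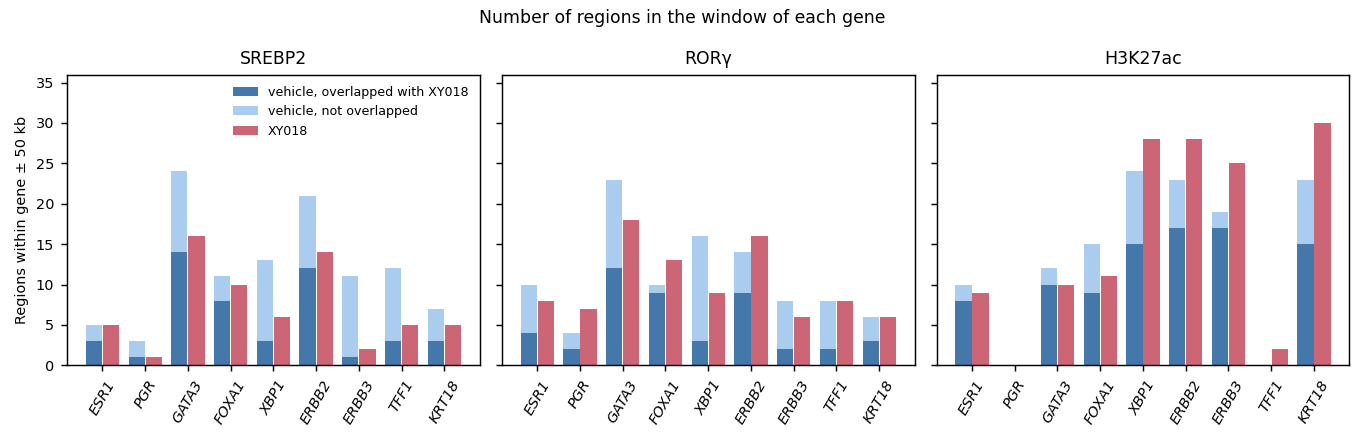
Number of regions within each gene and 50 kb to either side, for each antibody. Blue bars give the vehicle regions, dark where an XY018 region overlapped and light where none did, and red bars give the XY018 regions. ERBB3 went from 11 to 2 SREBP2 regions, and PGR had no H3K27ac region.

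The windows differed in how many regions they lost. In the ERBB3 window SREBP2 regions went from 11 to 2 and 1 of 11 was kept, and in the XBP1 window from 13 to 6 with 3 of 13 kept. In the FOXA1 window they went from 11 to 10 with 8 of 11 kept, and RORγ regions from 10 to 13 with 9 of 10 kept. GATA3 had the most factor regions, with 24 SREBP2 and 23 RORγ regions with vehicle and 16 and 18 with XY018. FOXA1 was also the window where factor and mark coincided most: with vehicle, 9 of 11 SREBP2 regions overlapped RORγ and 9 of 11 overlapped H3K27ac, and 10 of 10 RORγ regions overlapped SREBP2. Over all 9 windows, 46.7% of SREBP2 vehicle regions overlapped RORγ (37.0 to 56.6%), where 49.0% of all did, and 44.9% overlapped H3K27ac (35.2 to 54.8%), where 27.3% of all did. For RORγ, 36.4% overlapped H3K27ac (26.9 to 46.6%), where 16.7% of all did. ESR1, PGR and TFF1 windows had 1, 0 and 0 SREBP2 regions that overlapped H3K27ac. The windows hold between 1 and 8 other protein-coding genes each, and their promoters enter these counts.

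The strongest regions in several windows lay away from the promoter of the named gene. In the GATA3 window the region of highest fold for both factors was in a coding exon of TAF3, with the SREBP2 summit 45479 bp upstream of the canonical GATA3 start. That site held 76 SREBP2 fragments in vehicle-treated cells and 66 after XY018, while RORγ had 95 and 75 and H3K27ac 37 and 34. Upstream of FOXA1, a region in a coding exon of TTC6 reached 65 and 59 fragments for SREBP2, 79 and 73 for RORγ, and 45 and 33 for the histone mark. A second region in a TTC6 intron, at chr14:38079953-38080998 and at a promoter of TTC6, gave 75 and 65 RORγ fragments and 21 and 9 H3K27ac fragments. An intergenic region 16577 bp downstream of the KRT18 start gave 37 and 25 SREBP2 fragments and 34 and 26 RORγ fragments, more than the KRT18 promoter with vehicle. Among SREBP2 vehicle regions that no XY018 region overlapped, the highest fold was at chr21:43832211-43832492, in an intron of UBASH3A in the TFF1 window, with 16 fragments. These regions were chosen as the strongest of many.

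The patterns of the 7 genes called in all 6 lists were compared with those of all 9310 genes called in all 6, by the distance between their log2 pileups over the 6 libraries. Genes among the 3 nearest to ESR1 were FRMD5, UGT8 and STX11, to GATA3 BCL7B, LPAR2 and ZNF326, and to FOXA1 OSBPL11 and FKBP8. For XBP1 they were UTP4, CHTF8 and DERPC, which had the same distance of 0.324, for ERBB2 MGAT4B and POU2AF3, for ERBB3 DKKL1, ZNF18 and PROM1, and for KRT18 PGM3, RWDD2A and NSUN7. The distances ran from 0.142 for GATA3 to 0.515 for ESR1. PGM3 and RWDD2A had identical pileups in all 6 lists and so the same distance. None of the nearest genes of any of the 7 was another of the luminal genes. The luminal genes are few among the 9310, so this absence was likely in advance and describes nothing particular to them.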

How the data were processed

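HCC70 cells were immunoprecipitated for SREBP2, RORγ or H3K27ac after vehicle or XY018, and 1 library per group, 6 of the 12 samples, was analysed. The 6 input samples were not analysed here. Per the labels' processing notes, the authors used Bowtie2, MACS2 2.1.0 and bedtools, and the methods name BWA for alignment to hg19. The authors deposited, for each peak, a fold enrichment, −log10 values of p and q, and a display score that was not used here. The fold was read as the ratio of summit fragments to local background, with 1 added to each. Peak numbers in the H3K27ac lists skip and run up to 245055 and 241397, so these lists are selections, by a rule not given in the sources used here.

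Summit fragment numbers and local backgrounds were recovered from the deposited fold and p-value under the Poisson model, with a tolerance of 5% of a step, in Python 3.11.15 with scipy 1.17.1, and all but 1 region gave a whole number. The method was tested on simulated data. Genes were those of GENCODE 44 on GRCh37. Named genes were the 9 members, their family neighbours, the regions of highest fold in each window and the 3 nearest genes. Poisson intervals were used for fragments and Clopper-Pearson intervals for ratios and shares. A fold of 1.5 counted as called. The members and lists were chosen with earlier results of these data known. Some items that these rules select are not reported here.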

Additional observations from a re-analysis of the deposited data

How the results depend on the processing

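Of 121 alternative values, 96 stayed within the range of the original, 24 moved and 1 turned direction. All 36 alternatives to the promoter counts stayed within 1.5 times the original. The turned value was the H3K27ac median ratio, 0.986 by the deposited fold enrichment. That alternative was chosen after seeing the data, as was the use of every paired promoter region. At q of at most 1e-05, SREBP2 had 53 and 39 window regions with vehicle and XY018 and 67.9% kept, and RORγ had 31 and 37 with 83.9% kept. At q of at most 0.01, RORγ had 65 and 58 with 58.5% kept. With 20 kb to either side, SREBP2 had 67 vehicle regions with 55.2% kept, RORγ had 58 with 62.1% kept, and H3K27ac had 90 XY018 regions. With lists of equal length, 62.5% of SREBP2 regions were kept. Within 50 bp of the summit, SREBP2 vehicle regions with a match numbered 4 for the half-site, 1 for the sterol element, 0 for GATA, 5 for NF-Y and 26 for SP, and RORγ regions numbered 7 for the half-site, 0 for GATA, 5 for NF-Y and 19 for SP. Fewer regions or a shorter window are part of each of these alternatives. Scaling by tags raised the summed SREBP2 ratio to 0.710 and left those of RORγ and H3K27ac, whose inferred fragment lengths did not differ, as they were. No paired analysis was possible because each group held 1 library. Factor regions at the 9 promoters held at most 46 fragments, which leaves wide intervals on each ratio.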
